A study of Mus musculus with 14 samples.

Results

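The 36 genes described here encode subunits of voltage-gated calcium and sodium channels of the mouse, 17 pore-forming subunits and 19 auxiliary subunits, out of 21938 protein-coding genes on the assembled chromosomes. The genes were taken from a fixed list of names, and for each the sites of trimethylated lysine 27 of histone H3 (H3K27me3) were read over its body and over its start windows, that is 1 kb on either side of each annotated transcription start site (TSS). The cells were immortalised mouse embryo fibroblasts (iMEF), Ash2l fl/fl with an inducible Cre, in which the endogenous Ash2l gene had been deleted and human ASH2L carrying an N-terminal FKBP12F36V tag was supplied from a lentivirus (FKBP-HA2-ASH2L). Work in the study was done mostly with a single clone, NG3. Chromatin was prepared from control cells and from cells in which the tagged ASH2L was degraded by dTAG-13 for 30 min, 2 h, 4 h, 8 h or 16 h, with 2 H3K27me3 libraries per group and 12 in all. The list of sites combines all samples and gives a position for each site but no value for any library. It has no replicates, the read depth behind a site is unknown, and control and treated cells cannot be told apart in it. The values below therefore show where a site was called in the experiment as a whole, without a test, and the width and covered share of a site are what the genes were chosen on.

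Voltage-gated calcium and sodium channels open when the membrane depolarises and let calcium or sodium ions enter nerve, muscle and endocrine cells. A single large pore-forming subunit holds the voltage sensors and the gate, while smaller auxiliary subunits set how many channels reach the surface and how fast they open and close. Most of these genes are known from excitable cells rather than from fibroblasts. H3K27me3 is set by Polycomb repressive complex 2 and is found at silent genes, often as narrow sites at CpG-rich promoters and as broad domains over developmental genes.

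An H3K27me3 site lay over a start window of 27 of the 36 channel genes, or 75%, beside 31.5% of all protein-coding genes. A site of at least 2 kb lay there in 19 of them, against a background of 16.1%, and a site of at least 5 kb in 15, against 8.69%. Anywhere on the body or the start windows, 31 of the 36 genes had a site (background 48%). At least 50% of the bases were covered in 11 genes (background 9.28%), and 12 were touched by a site of at least 10 kb (background 4.42%). These measures are the ones the genes were chosen on, so nothing is read from the difference to the background. The genes closest to each limit were Scn3b with 5.27 kb and Cacna2d3 with 4.68 kb over a start window, Cacnb4 with 2.13 kb and Cacna1g with 1.49 kb there, Cacng4 with 54.2% and Cacna1h with 46.6% covered, and Cacna1d with a widest site of 10.2 kb and Cacng5 with 9.12 kb.

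The covered share of body and start windows together ran from 0 to 100%. The median over the 36 genes was 5.94% and the mean 30.4%, beside a median of 0 and a mean of 11.2% over all protein-coding genes. Few genes lay in between, since 15 were covered by at least 10% and 11 of these by at least 50%. In the plot of covered share by member, the high-voltage-activated pores, the sodium pores, the alpha2delta and the gamma subunits each hold genes covered by at least 50% and genes covered by less than 10%. The calcium channel beta subunits were all below 10% and the sodium channel beta subunits all above 50%. The low-voltage-activated pores reached 46.6%.

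**Figure D1:**
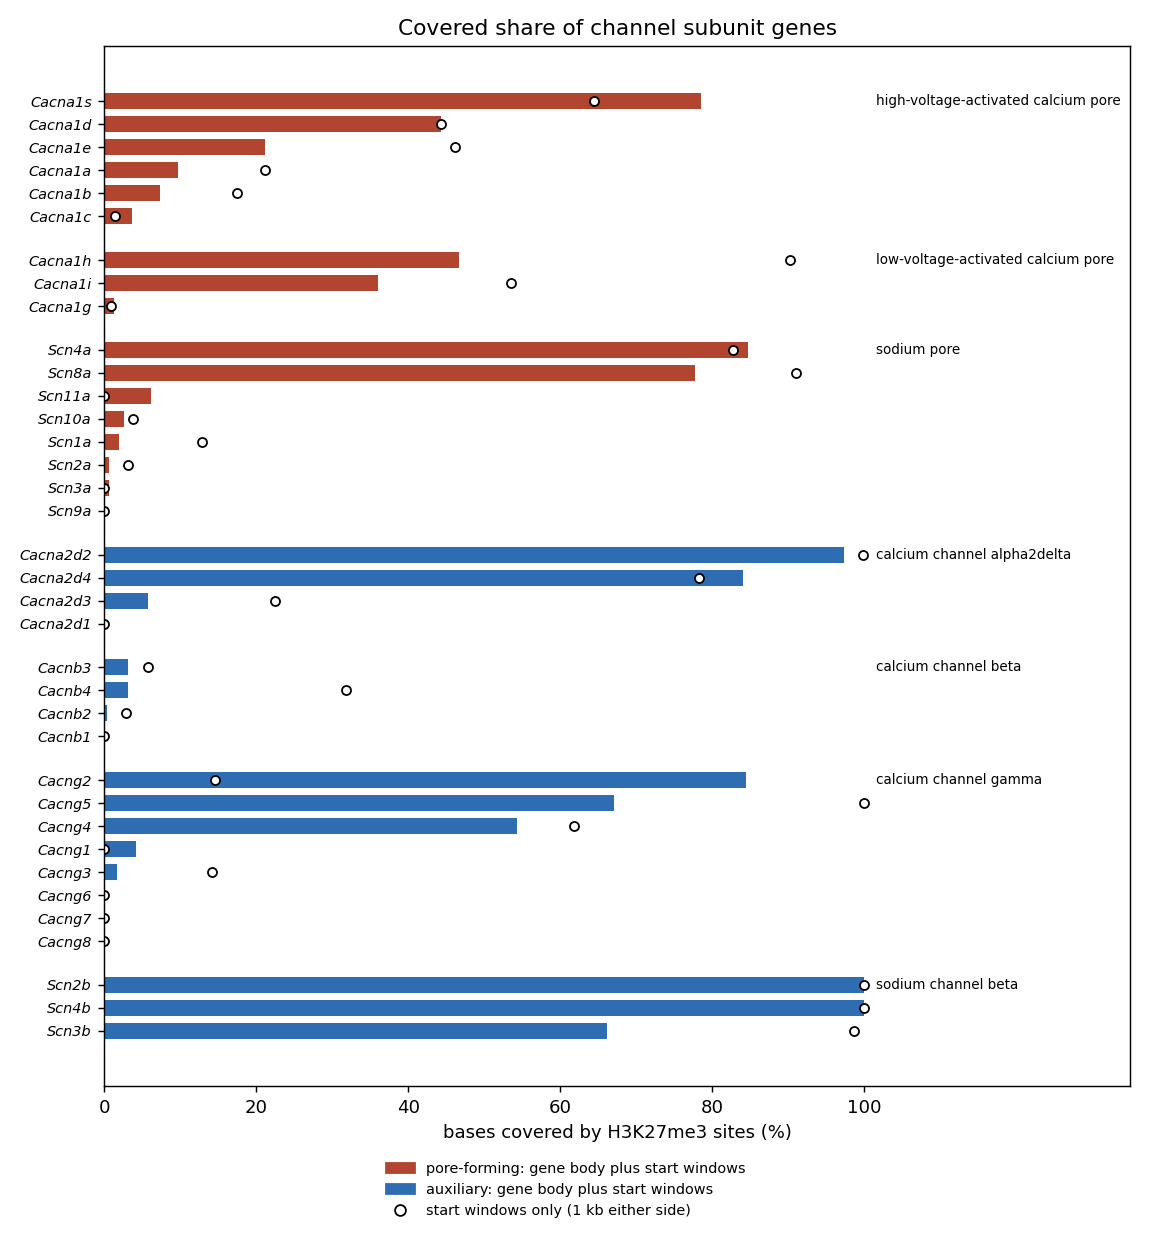
Bars show the percentage of bases of the gene body plus start windows that H3K27me3 sites cover, for each of the 36 channel genes grouped by family (red, pore-forming; blue, auxiliary). Open circles show the same percentage within the start windows only, which in Cacng2 is 14.5% against 84.4% overall and in Cacna1h is 90.3% against 46.6%.

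Among the pore-forming subunits, Scn4a was covered most, at 84.7% of its bases. Scn4a encodes the sodium channel of skeletal muscle and lies on chromosome 11 (chr11:106318592-106353288, minus strand, 34.7 kb). It carried 10 sites, the widest of 14.4 kb, and its exons were covered by 100% and its introns by 80.2%. Cacna1s, the voltage sensor of skeletal muscle that couples excitation to contraction, followed with 78.6% under 18 sites. Its widest site was 13.8 kb, 5 of its 6 starts had a site in the window, and coverage was 55.3% in the first of 5 equal parts of the body and 94.7% in the fourth. Both muscle genes were thus covered along most of their length.

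Scn8a, the sodium channel of the axon initial segment and of nodes of Ranvier, was covered by 77.7% over a body of 176.1 kb. All 19 of its annotated starts had a site in the window, and a site of 14.6 kb (chr15:100868034-100882640) lay over its 5′ end. Its widest site of 22.8 kb sat at the 3′ end and ran on over Fignl2 and Gm47841. Exons of Scn8a were covered by 98.4% and introns by 75.5%. This gene stood apart from the other neuronal sodium channels, which are described next.

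The other 6 sodium pores were covered by at most 6.18%. Scn11a and Scn10a, channels of pain-sensing neurons, had 6.18% and 2.56%, in sites no wider than 911 bp. Scn1a, used by inhibitory neurons, had 1.88%, with a site of 495 bp across its 5′ end and a widest site of 855 bp. Scn2a of excitatory neurons and Scn3a of the embryonic brain had 0.553% and 0.546%, each in 3 sites, the widest of 304 bp and 209 bp. Scn9a, another channel of sensory neurons, held a single site of the smallest width in the list, 200 bp, which covered 0.128%. Start windows of Scn3a, Scn9a and Scn11a held no site.

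All 6 genes for high-voltage-activated calcium pores had a site over a start window, but their coverage differed widely. After Cacna1s, the L-type channel gene Cacna1d of endocrine, pacemaker and hair cells had 44.2% of its 451.5 kb covered. This was made up of 156 sites, the most of any member, and 8 of its 10 starts had a site. Its widest single site was 10.2 kb. When sites less than 5 kb apart were joined, the widest became 73.5 kb. Cacna1e, the R-type channel, had 134 sites and 21.1% covered. Its widest site, of 8.66 kb, lay over an internal start 153.5 to 162.1 kb from the 5′ end, where the RefSeq promoter of the gene was entirely within the site.

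Cacna1a and Cacna1b, which admit the calcium that triggers transmitter release at nerve endings, were covered by 9.66% and 7.27%. In both, coverage was highest in the first part of the body, with 25.1% and 22.7%, and at most 14.2% in the other 4 parts. Cacna1c, the L-type channel of heart and smooth muscle, had 3.63% covered and 16.1% in the first part. Its start windows held only 1 site of 243 bp for 14 annotated starts, while 3 sites of 3.84 to 4.32 kb lay between 26.3 and 54.4 kb from its 5′ end. Cacna1d differed from these 3 genes, with 35.9 to 56.2% covered in all 5 parts of the body, as the map of coverage along the gene body shows.

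**Figure D2:**
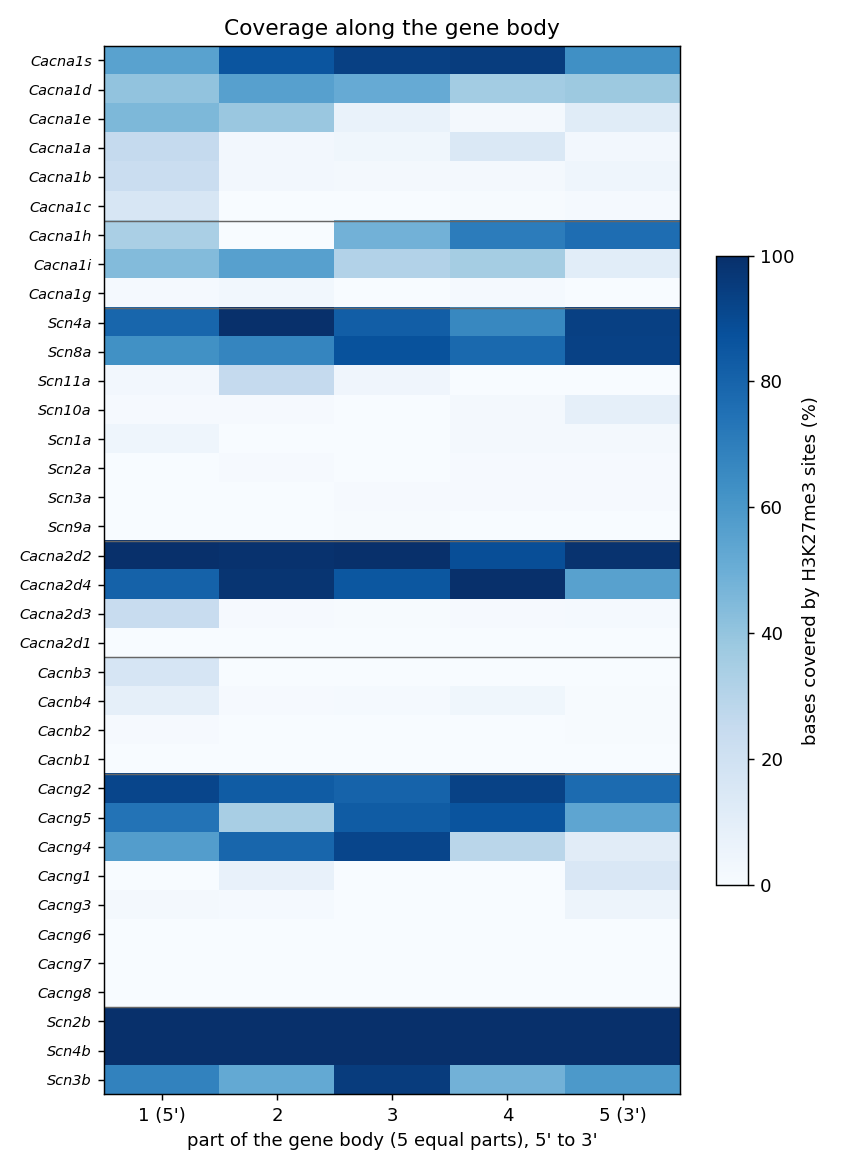
The shade gives the percentage of bases covered by H3K27me3 sites in the 5 equal parts of the gene body, from the 5′ end (1) to the 3′ end (5), for the 36 genes in the order of the plot of covered share, with lines between families. Cacna2d2, Scn2b and Scn4b were covered by at least 88.6% in all 5 parts, whereas in Cacna2d3, Cacna1a, Cacna1b and Cacna1c the first part held the highest share, between 16.1 and 25.1%.

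The 3 low-voltage-activated (T-type) calcium pores, which open near the resting potential, all had a site over a start window. Cacna1h was covered by 46.6% and lay inside a broader covered area, since 95.8% of the 50 kb upstream and 92.8% of the 50 kb downstream were under sites. A site of 29.6 kb (chr17:25430453-25460021) began upstream, extended over Tekt4 and ended 3.33 kb into the gene. The second of the 5 parts of its body was covered by 0. Cacna1i, a channel of the thalamus, had 36% covered and a 12.1 kb site across its 5′ end. Cacna1g had 1.32% in 4 sites, the widest of 1.49 kb, although 33.3% of the 50 kb upstream and 42.5% of the 50 kb downstream were covered.

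The auxiliary subunits held both the most and the least covered genes. Scn2b and Scn4b, the sodium channel beta subunits that form a disulphide bond with the pore, lay under a single site of 44.4 kb (chr9:45112200-45156551), the only site shared by members. The site covered 100% of both genes and of the 8.32 kb between them. Scn3b, which binds the pore without such a bond, lies elsewhere on the same chromosome. It was covered by 66.1% in 11 sites, the widest of 5.27 kb, and all 9 of its starts had a site in the window.

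Of the alpha2delta subunits, which help bring calcium channels to the surface and include the binding site of gabapentin, Cacna2d2 and Cacna2d4 were densely covered and Cacna2d1 was empty. Cacna2d2 (chr9:107399612-107529343, plus strand) was covered by 97.3%. Its site of 71.9 kb (chr9:107367043-107438971) was the widest at any member, began 32.6 kb upstream of the 5′ end and was followed by a site of 51.4 kb that lay over no start window. Upstream, 99.5% of 50 kb were covered, against 3.29% downstream. Cacna2d4, a subunit of the retina, was covered by 84.0% and had a 35.8 kb site that also lay over Lrtm2. Cacna2d3 had 66 sites but only 5.70% of its 816.9 kb covered, with 24.2% in the first part. No site lay on Cacna2d1, and the nearest was 6.32 kb away and 200 bp wide.

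The map of sites along 9 of the genes shows these arrangements side by side.

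**Figure D3:**
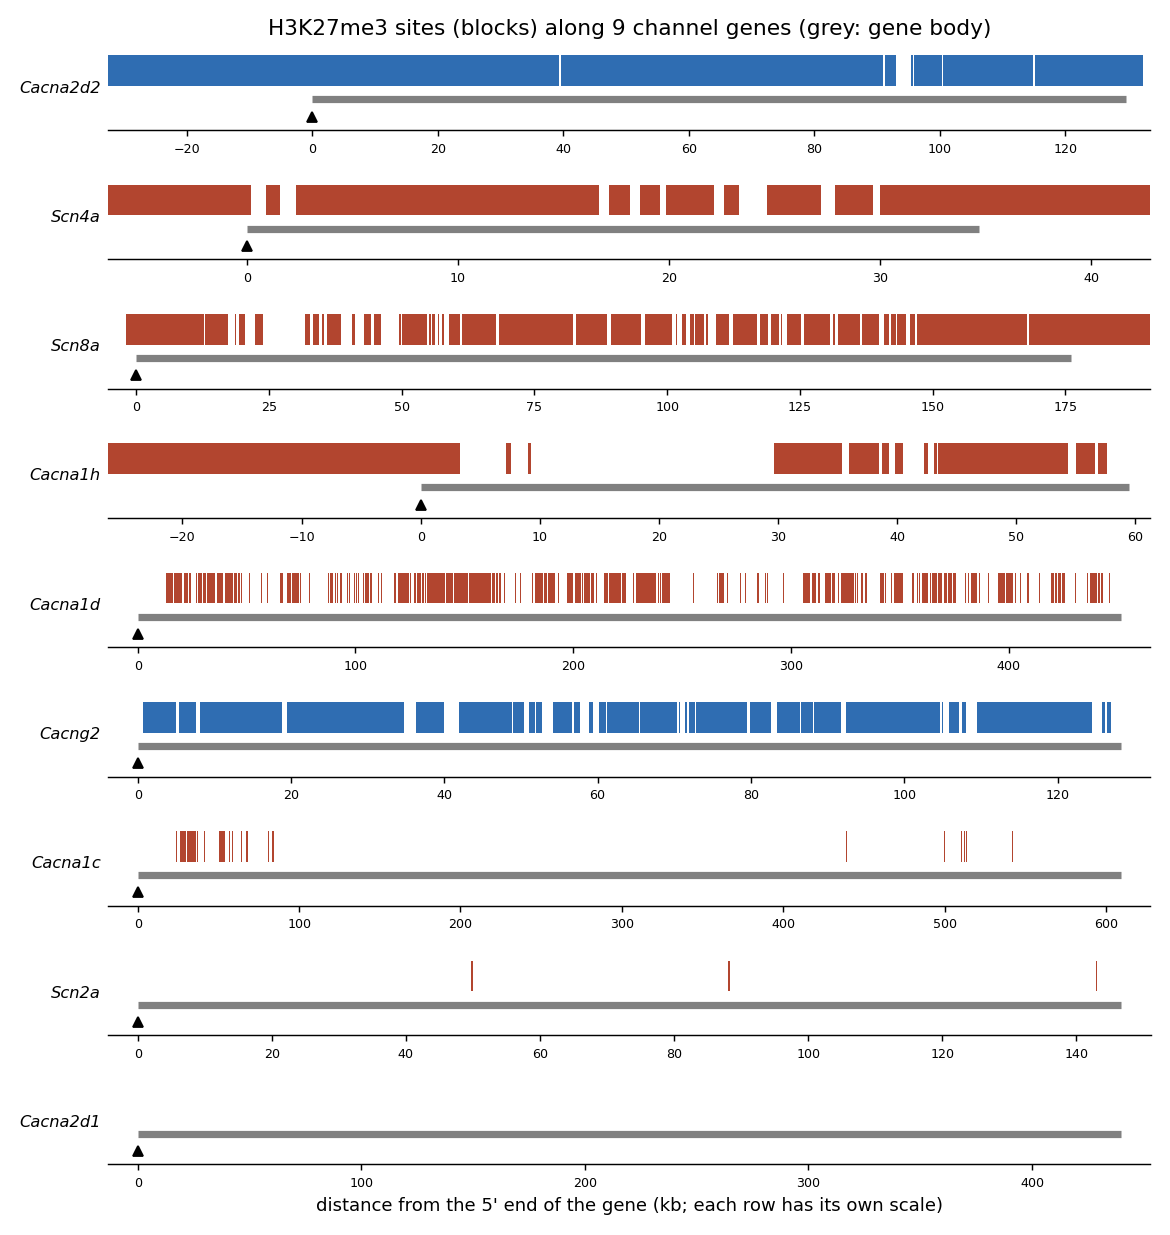
Blocks are H3K27me3 sites and grey bars gene bodies, drawn by distance in kb from the 5′ end (triangle) with a separate scale for each gene (red, pore-forming; blue, auxiliary). Cacna2d2 lies under a few sites of up to 71.9 kb, Cacna1d under 156 separate sites, Cacna1c has its sites mainly in the first part, Scn2a has 3 narrow sites and Cacna2d1 none.

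The promoters of Cacna2d2 and Cacna2d1 are shown because they have nearly the same content of CpG, which is dense where Polycomb sites often form, but opposite coverage. The stretches run from 250 bases before to 50 bases after the start, are written 5′ to 3′ on the gene's strand, and come from RefSeq for GRCm38.p6. Capitals mark CpG. The Cacna2d2 stretch (chr9:107399630-107399929, plus strand) holds 43 CpG and lies entirely within the site of 71.9 kb. The Cacna2d1 stretch (chr5:15934441-15934740, plus strand) holds 42 and is touched by no site.
Cacna2d2: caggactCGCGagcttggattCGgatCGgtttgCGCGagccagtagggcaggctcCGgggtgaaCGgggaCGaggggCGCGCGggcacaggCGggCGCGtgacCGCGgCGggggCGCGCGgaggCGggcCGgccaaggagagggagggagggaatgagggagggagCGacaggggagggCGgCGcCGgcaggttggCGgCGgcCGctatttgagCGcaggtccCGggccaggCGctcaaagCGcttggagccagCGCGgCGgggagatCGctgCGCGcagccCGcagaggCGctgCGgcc
Cacna2d1: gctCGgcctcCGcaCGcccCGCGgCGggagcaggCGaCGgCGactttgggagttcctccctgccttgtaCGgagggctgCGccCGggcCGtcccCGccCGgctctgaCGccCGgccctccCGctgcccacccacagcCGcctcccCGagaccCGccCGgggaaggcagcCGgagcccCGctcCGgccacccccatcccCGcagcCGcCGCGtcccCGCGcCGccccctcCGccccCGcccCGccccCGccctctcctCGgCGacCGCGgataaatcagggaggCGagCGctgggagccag

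Scn2b and Scn4b show the reverse, very different promoters under the same site. The Scn2b stretch (chr9:45117626-45117925, plus strand) holds 2 CpG and the Scn4b stretch (chr9:45138374-45138673, plus strand) holds 26, and 300 of 300 bases of both are covered. Capitals again mark CpG.
Scn2b: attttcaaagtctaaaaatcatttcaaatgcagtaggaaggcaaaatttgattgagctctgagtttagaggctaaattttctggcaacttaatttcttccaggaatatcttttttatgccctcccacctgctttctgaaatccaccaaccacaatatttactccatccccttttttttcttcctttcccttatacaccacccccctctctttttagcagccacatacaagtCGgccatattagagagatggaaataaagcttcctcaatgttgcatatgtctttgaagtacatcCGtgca
Scn4b: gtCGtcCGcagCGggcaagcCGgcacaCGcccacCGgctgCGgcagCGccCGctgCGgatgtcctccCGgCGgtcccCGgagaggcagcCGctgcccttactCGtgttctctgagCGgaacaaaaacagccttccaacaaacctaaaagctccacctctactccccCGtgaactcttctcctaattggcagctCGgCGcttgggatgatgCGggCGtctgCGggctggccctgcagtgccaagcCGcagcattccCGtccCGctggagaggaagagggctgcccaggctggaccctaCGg

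Such promoter stretches were found in the RefSeq table for 28 of the 36 genes, and the median over the 20150 promoters of the table was 14 CpG. High counts occurred at promoters under wide sites, such as Scn8a with 38 CpG, Cacna2d3 with 41 and Cacna1b with 35. They also occurred at Cacnb4 with 40 under a site of 2130 bp, and at Cacnb1 with 34 and no site. Cacnb2 had 35, and a site of 487 bp covered 53 of its 300 bases. Low counts occurred under wide sites too, at Scn4a with 4 and Cacna1s with 9. CpG-rich promoters were called in windows of 500 bp on either side of the 5′ end. By this measure 12 members were CpG-rich and 10 of these had a site over a start window, beside 25.5% of all CpG-rich genes. Of the other 24 members 17 had one, beside 36.3% of all genes that were not CpG-rich. These shares are not split by gene length. A site over a start window is among the measures the genes were chosen on, so nothing is read from these differences. The 2 CpG-rich members without a site over a start were Cacna2d1 and Cacng7.

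The beta subunits of calcium channels are cytoplasmic partners that promote surface expression, and the highest covered share among the 4 genes was 3.10%. Cacnb4, abundant in the cerebellum, had 16 sites, with the widest of 2.13 kb beginning 123 bp inside its 5′ end. Cacnb2 of the heart and Cacnb3 had 1 narrow site each over a start window, 487 bp and 456 bp wide. Cacnb1, the form of skeletal muscle, had no site, the nearest being 11.3 kb away and 365 bp wide. The pores of the same tissue, Cacna1s and Scn4a, were covered by 78.6% and 84.7%.

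The gamma subunits ranged from 0 to 84.4% covered. Cacng2 (stargazin), which carries AMPA-type glutamate receptors to synapses, had the highest share, under 31 sites. Its start window had only 14.5% covered, because the first site began 709 bp inside the gene. Exons of Cacng2 were covered by 32.7% and introns by 87.4%. Its relatives Cacng5 and Cacng4 were covered by 67.0% and 54.2%, with sites of 9.12 kb and 13.3 kb over their 5′ ends. These neighbours on chromosome 11 are 80 kb apart, and 61.6% of the sequence between them was covered. Next to them Cacng1, the gamma subunit of skeletal muscle, had 4.19% covered in 2 sites of 399 bp and 200 bp, and only 12.5% of the 15.8 kb between Cacng1 and Cacng4 was covered. The share of Cacng1 was 40.5% when sites less than 5 kb apart were joined, and 0 with only sites of at least 500 bp. Cacng3 had 1.63% covered in 3 narrow sites, which lay over 48.1% of its exon bases and 0.310% of its introns.

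Cacng6, Cacng7 and Cacng8 had no site. They lie side by side at the start of chromosome 7, and 100% of the words of 75 bases in each of the 3 genes also occur in an assembly patch, compared with at most 4.47% in each of the other 33 members. The repeated stretch (chr7:3000001-3477809) holds 0 sites over 477.8 kb, and the next site begins at position 3514886. The authors filtered the alignments by the ENCODE recommendations, without naming how reads that match both copies were handled, and the part of this repetition in the missing sites was not tested.

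The neighbouring sodium pores were low throughout. On chromosome 2, 53.1 kb lie between Scn2a and Scn3a with 1.20% covered, and 39.2 kb between Scn1a and Scn9a with 0.762%. On chromosome 9, 34.4 kb lie between Scn10a and Scn11a with 0 covered, although 47.0% of the 50 kb downstream of Scn10a was under sites. Neighbours differed strongly in another pair. Cacna1c and Cacna2d4 on chromosome 6 are 40.1 kb apart, with 25% of the gap covered, and were themselves covered by 3.63% and 84.0%.

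Pore-forming and auxiliary subunits were then compared as groups. A site over a start window was present in 14 of 17 pore-forming genes (82.4%) and 13 of 19 auxiliary genes (68.4%). A site of at least 5 kb over a start window was present in 8 and 7. The median covered share was 7.27% (quartiles 1.88 and 44.2%) for the pores and 4.19% (0.158 and 75.5%) for the auxiliary subunits, while the means were in the opposite order, 24.9% and 35.3%. At least 50% was covered in 3 of 17 and 8 of 19, but in 7 of 17 and 8 of 19 when sites less than 5 kb apart were joined, and in 5 and 8 when the gap was under 1 kb. The widest site had a median of 5.49 kb and 2.13 kb.

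Without Cacng6, Cacng7 and Cacng8, the start count of the auxiliary subunits was 13 of 16 (81.3%), their median covered share was 30.0% and their median widest site 5.22 kb. The order of the classes thus changed for the median covered share, and not for the start share or the median widest site. The order also differed by length. Among members of 50 to under 200 kb, the median covered share was 4.37% for 12 pores and 84.0% for 5 auxiliary genes, whereas among those of 200 kb or more it was 15.4% for 4 pores and 1.70% for 4 auxiliary genes. The order of the 2 classes in median covered share therefore differed between these splits. Families hold only 3 to 8 genes each, so the spread of their medians is not compared with that of the classes. The median covered share by family was 100% in sodium channel beta, 44.9% in alpha2delta, 36% in low-voltage-activated pores, 15.4% in high-voltage-activated pores, 2.91% in gamma, 2.22% in sodium pores and 1.70% in calcium channel beta subunits.

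**Figure D4:**
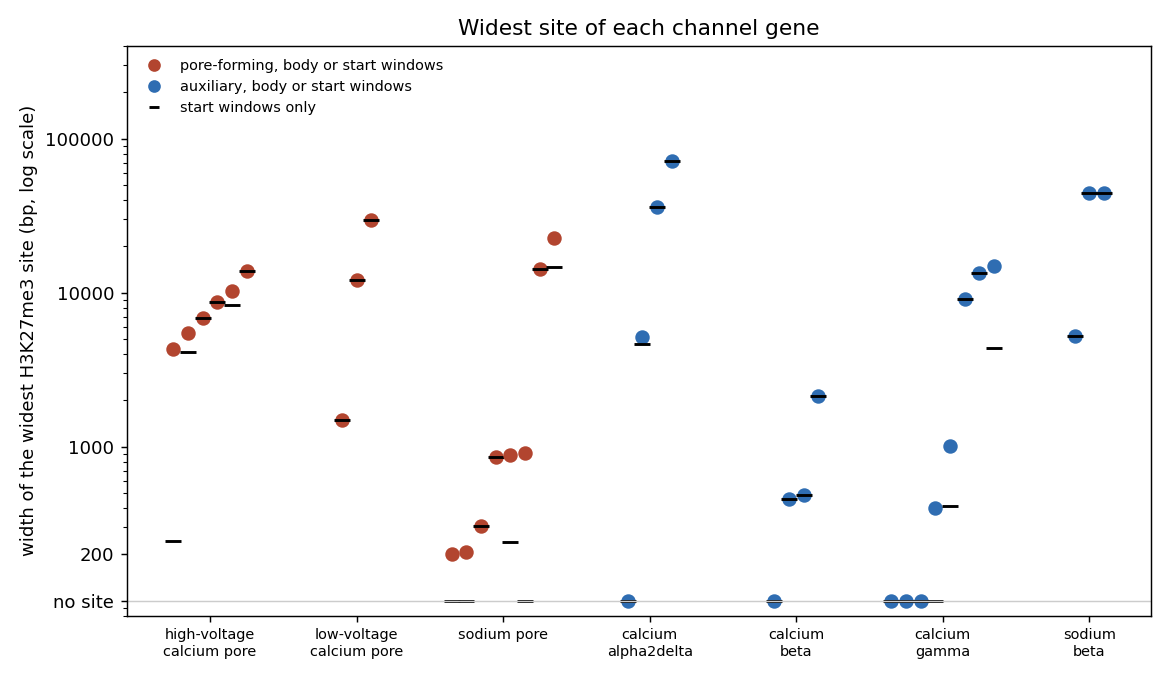
Points give the width in bp, on a log scale, of the widest H3K27me3 site on the body or start windows of each channel gene by family (red, pore-forming; blue, auxiliary), and short black lines the widest site over a start window, with genes that lack one placed at the line marked no site. Widths spread from 200 bp in Scn9a to 22806 bp in Scn8a within the sodium pores, and from no site to 71929 bp within the alpha2delta subunits.

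The single sites were also counted. Pore-forming genes were touched by 514 sites with a median width of 543 bp, of which 6.23% were at least 5 kb wide. Auxiliary genes were touched by 207 sites with a median of 519 bp, of which 10.6% were at least 5 kb wide. These pooled values rest on a few genes, since Cacna1d and Cacna1e hold 156 and 134 of the pore sites and Cacna2d3 holds 66 of the auxiliary ones. Over all 721 sites at members the median was 536 bp and 7.49% were at least 5 kb wide, beside 455 bp and 3.30% over all 153878 sites on the assembled chromosomes. Site width is among the values the genes were chosen on, so nothing is read from this difference.

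Channel genes are long and have many starts. The median body was 110.7 kb with 6 starts, compared with 17.4 kb and 3 starts over all protein-coding genes. Shares are given by length for that reason. Among genes of 10 to under 50 kb a site over a start window was found in 6 of 11 members and 29.7% of all genes. At 50 to under 200 kb it was 14 of 17 and 36%, and at 200 kb or more 7 of 8 and 55.0%. No member is shorter than 10 kb.

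**Figure D5:**
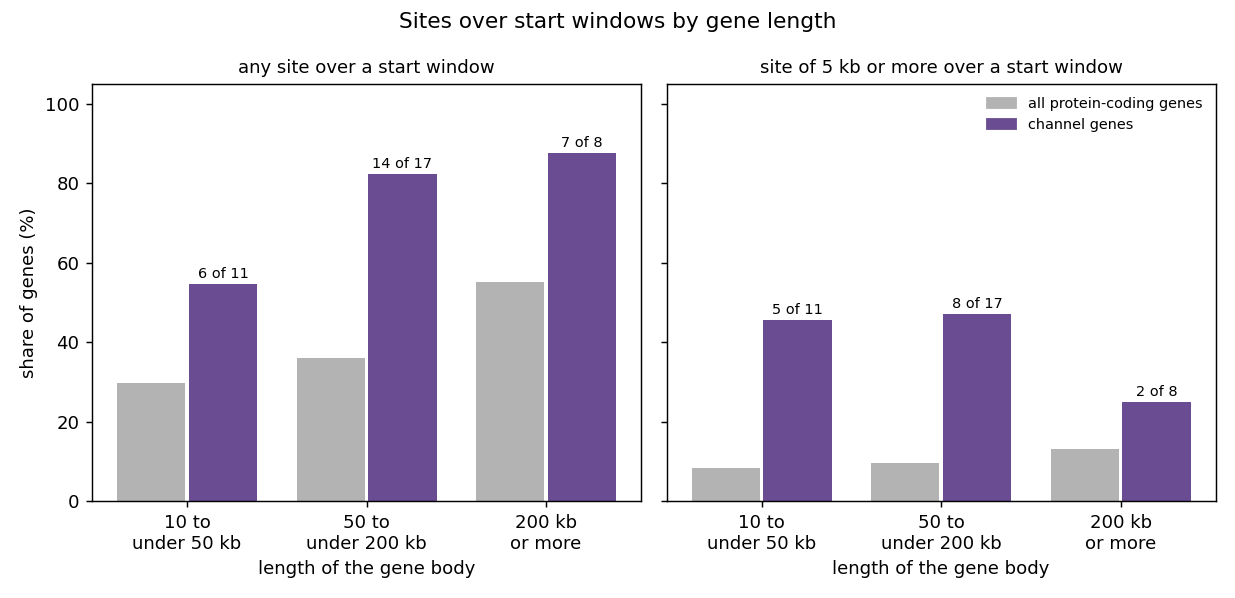
Bars give the percentage of genes with any H3K27me3 site (left) or a site of at least 5 kb (right) over a start window, for all protein-coding genes (grey) and channel genes (purple), in 3 classes of body length. The purple bars stand above the grey ones in each class, but each rests on 8 to 17 members that were chosen with these sites known.

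Many neuronal channel genes are known targets of REST, a repressor that binds the RE1 element and keeps neuronal genes silent in other cells. The presence of an RE1 is not part of the rule by which the genes were chosen. The RE1 consensus of 17 positions was searched on both strands of each gene region. It matched in 11 of the 36 members (30.6%), with 13 matches in all, and in 4.75% of all protein-coding genes. The share is higher among longer genes, and by length class the shares were 1 of 11 and 2.87% at 10 to under 50 kb, 6 of 17 and 9.40% at 50 to under 200 kb, and 4 of 8 and 29.5% at 200 kb or more. Pore-forming genes held a match in 8 of 17 cases and auxiliary genes in 3 of 19.

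Matches within 1 kb of a start are shown together with those that share their letters, since they differ in coverage. Capitals mark the 17 matched bases, written 5′ to 3′ on the strand of the match, read from GRCm38.p6. The Scn2a match (chr2:65619964-65619980, plus strand) lies 799 bp upstream of the 5′ end and 1645 bp from the nearest site. The same letters occur in Cacna1h (chr17:25400638-25400654, minus strand) under a site of 5730 bp and in Scn10a (chr9:119706902-119706918, minus strand), 11170 bp from any site. In Cacna1b (chr2:24762083-24762099, plus strand) the match is 956 bp from the nearest start under a site of 6833 bp, and in Scn3b (chr9:40269744-40269760, minus strand) 535 bp inside under a site of 3119 bp. The Cacna1d match (chr14:30049516-30049532, plus strand) is 725 bp from an internal start under a site of 961 bp.
Scn2a, Cacna1h and Scn10a: TTCAGCACCACGGACAG
Cacna1b: GTCAGCACCACGGACAG
Scn3b: CTCAGCACCACGGACAG
Cacna1d: TTCAGAACCTGGGACAG

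Of the 13 matches, 5 lay under a site, those of Cacna1b, Cacna1d, Cacna1h, Scn3b and Scn8a. Over the whole genome 18.0% of 2163 matches did. The covered share is among the values the genes were chosen on, so nothing is read from this difference. The other 8, in Cacna1a, Cacna1c, Cacna2d3, Cacng2, Scn2a and Scn10a, lay between 544 and 19567 bp from the nearest site. A match of letters is a description and does not show that REST binds there.

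Other genes that act on the same ions or channels were read in the same way, from lists chosen with results of these data known. Over all protein-coding genes, 31.5% had a site over a start window. Of 16 partners and regulators of the channels, 11 had a site over a start window, with a median covered share of 1.55% and the highest values in Fgf11 (85.5%) and Stac2 (27.8%). Of 18 other calcium and sodium channels, such as ryanodine receptors and sperm channels, 7 had one, with a median of 0.968% and the highest values in Catsper4 (63.2%) and Ryr1 (55.6%). Of 14 calcium and sodium pumps and exchangers, 12 had one, with a median of 38.1% and the highest value in Slc8a2 (82.3%). Of 9 fibroblast markers, which the labelled cell type should use, 3 had a site over a start window, in Col1a1, Vim and Pdgfra, and these were 363 to 437 bp wide. Their median covered share was 0. The start shares of the fibroblast markers (33.3%) and of the 18 other channels (38.9%) were near that of all protein-coding genes. A list of sites holds no expression, so whether any of the channel genes was transcribed in these cells was not analysed here.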

How the data were processed

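H3K27me3 ChIP-seq libraries (12, with 2 input libraries) were trimmed with Trim Galore and aligned by the authors with BWA to mm10 (GRCm38.p6), filtered with samtools as ENCODE recommends, merged over replicates with Picard and brought to the lowest coverage of the experiment. Broad peaks were called with MACS and combined over all samples. Versions, threshold and merging rule are not given in the sources used here. The file deposited by the authors holds the chromosome, start and end of 153983 sites and no read count, and sites were read as counted from 0 and printed from 1.

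Sites were compared with GENCODE M21 genes, an earlier release than that of the study, and RefSeq sequences (GRCm38.p6) with Python 3.11.15, numpy 2.4.6, pandas 2.3.3 and pysam 0.24.0. Overlap by 1 base or more counted. A promoter was CpG-rich at a GC content of at least 50% and an observed to expected CpG ratio of at least 0.6. The members and lists were chosen with earlier results of these data known, so no test was made. Described in full were, per class, the 5 genes with the highest covered share and the 3 with the widest site, neighbours within 100 kb and genes without a site. The remaining members are given by their values. From each other list the 2 genes with the highest covered share were named, of which 1 gene is not reported here, and for the fibroblast markers those with a site over a start window. Alternatives were joining sites, minimum widths, other windows, transcripts and overlaps.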

Additional observations from a re-analysis of the deposited data

How the results depend on the processing

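No paired analysis was possible because sites carry positions only, and leaving out single libraries could not be run either. Across the alternatives, 20 to 29 of the 36 genes had a site over a start window, 10 to 15 of the pores and 10 to 14 of the auxiliary subunits. The lowest count came with only sites of at least 1 kb, where the background was 20.1%, and the highest with windows of 2 kb, where it was 37.2%. The median widest site of the pores moved from 5494 to 20745 bp with joining over gaps under 5 kb and to 10940 bp with 1 kb. That of the auxiliary subunits moved from 2130 to 5027 bp with 5 kb. The genes covered by at least 50% numbered 7 (5 kb) and 5 (1 kb) instead of 3 among the pores. Among the auxiliary subunits they stayed at 8 with both joining distances. With only sites of at least 500 bp the auxiliary count was 7, and with only sites of at least 1 kb it was 6. The pore count stayed at 3 under both minimum widths. The median covered share ran from 4.41 to 13.9% for pores and from 0.939 to 30.0% for auxiliary subunits, the last value being without the 3 genes repeated in a patch, an alternative chosen after seeing the data, under which the auxiliary median exceeded that of the pores. Of 288 covered shares of single genes under alternatives, 42 moved by more than 1.5 times, 16 of them with sites of at least 1 kb, 13 with 5 kb joining, 12 with sites of at least 500 bp and 1 with 2 kb windows. The cause was not tested. Broad domains cut into separate sites, and the unknown depth, limit what a width shows.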
